A study of Homo sapiens with 6 samples.

Results

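The transcripts described here are those of 10 chemokines that attract T cells, neutrophils or monocytes. They were chosen by symbol as CXCL9, CXCL10, CXCL11, CCL5, CXCL16, CXCL1, CXCL2, CXCL3, IL8 (the older symbol of CXCL8) and CCL2. All 10 were found among the 57820 genes of the table. RNA was sequenced from M14, a human melanoma cell line that expressed a doxycycline-inducible shRNA against STAG2 and was kept under puromycin. STAG2 is a subunit of cohesin, the ring complex that holds DNA loops together. The WT group was cultured without doxycycline and the STAG2-KD group (KD) with it, both for 5 days, and each group had 3 libraries. Both groups therefore carried the shRNA, so that the knockdown and doxycycline itself cannot be told apart. The study describes the 3 samples of a group as biologically independent, and all came from the same line. The comparison asked which of these chemokine transcripts were higher or lower when STAG2 was depleted in this single line.

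Chemokines are small secreted proteins that guide white blood cells along a gradient through G protein-coupled receptors on the migrating cell. CXCL9, CXCL10 and CXCL11 are interferon-inducible ligands of CXCR3 on activated T cells, CCL5 binds CCR1 among other receptors, and CXCL16 is a membrane-bound ligand of CXCR6 that can be shed. CXCL1, CXCL2, CXCL3 and IL8 share the ELR motif and attract neutrophils through CXCR2, IL8 also through CXCR1, while CCL2 attracts monocytes and memory T cells through CCR2. Tumor cells, melanoma cells among them, can make several of these proteins themselves, IL8 and CXCL1 having long been studied as melanoma growth factors.

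On GRCh37, 7 of the genes lie on chromosome 4 and 3 on chromosome 17, with positions from the GENCODE annotation lifted to that build. IL8 (chr4:74606236-74609433, plus strand), CXCL1 (chr4:74735110-74737025, plus), CXCL3 (chr4:74902306-74904524, minus) and CXCL2 (chr4:74962757-74964913, minus) form a stretch of 359 kb. CXCL9 (chr4:76922428-76928662), CXCL10 (chr4:76942271-76944650) and CXCL11 (chr4:76954835-76962568), all on the minus strand, lie within 40.1 kb. CXCL16 (chr17:4636828-4643223, minus), CCL2 (chr17:32582293-32584227, plus) and CCL5 (chr17:34198495-34207797, minus) lie apart on chromosome 17.

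The upstream sequences of 4 of these genes are shown because their promoters are textbook targets of interferon and NF-kB signalling. Each is the 250 bases before the RefSeq start, taken from RefSeq GRCh38.p14 and placed on GRCh37 by an exact match, on the strand of the gene. Capitals mark 2 motifs, searched on both strands. They are TTCNNTTTC, a short form of the interferon-stimulated response element, and GGNNTTTCC, a form of the NF-kB site, and no match to one overlapped a match to the other. The interval of CXCL10 is chr4:76944651-76944900 on the minus strand, that of CXCL9 is chr4:76928663-76928912 on the minus strand, that of IL8 is chr4:74606036-74606285 on the plus strand and that of CXCL1 is chr4:74734860-74735109 on the plus strand.
CXCL10: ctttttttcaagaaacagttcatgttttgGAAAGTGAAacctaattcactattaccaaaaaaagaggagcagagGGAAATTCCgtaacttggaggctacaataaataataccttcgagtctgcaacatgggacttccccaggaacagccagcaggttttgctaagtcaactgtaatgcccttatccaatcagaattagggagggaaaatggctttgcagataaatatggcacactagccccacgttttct
CXCL9: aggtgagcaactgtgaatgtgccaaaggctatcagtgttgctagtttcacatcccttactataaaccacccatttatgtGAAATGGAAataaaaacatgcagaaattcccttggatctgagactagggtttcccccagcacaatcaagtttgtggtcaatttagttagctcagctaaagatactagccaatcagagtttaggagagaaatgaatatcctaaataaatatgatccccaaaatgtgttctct
IL8: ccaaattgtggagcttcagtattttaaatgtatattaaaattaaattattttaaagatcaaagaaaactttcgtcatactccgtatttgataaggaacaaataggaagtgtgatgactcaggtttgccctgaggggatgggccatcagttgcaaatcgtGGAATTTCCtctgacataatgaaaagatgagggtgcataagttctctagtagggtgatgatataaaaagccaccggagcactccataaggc
CXCL1: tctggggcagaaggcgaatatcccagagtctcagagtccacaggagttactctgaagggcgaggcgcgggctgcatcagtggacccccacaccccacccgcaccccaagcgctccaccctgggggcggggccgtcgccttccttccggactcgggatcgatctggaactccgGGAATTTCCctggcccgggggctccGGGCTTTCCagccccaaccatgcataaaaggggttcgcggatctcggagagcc
CXCL10 held 1 match to each motif, and CXCL9 held 1 match to the response element and 0 to the NF-kB form. IL8 and CXCL11 held 1 match to the NF-kB form, and CXCL1, CXCL2 and CXCL3 held 2 each. The response element also matched 1 time each in CXCL2 and CXCL3, and 0 times in CXCL11, CXCL1 and IL8. Of 34788 RefSeq promoters of the same length, 6.89% held the response element and 5.48% the NF-kB form. A match describes the letters in the window and not a bound site. The promoters of CCL5, CXCL16 and CCL2 were not analysed here.

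Library totals ran from 24895998 to 35181733 expected counts, and 3 counts, the floor for a value of 0, corresponded to 0.0853 to 0.121 CPM (counts scaled to the size of the library). Such floors cover counting error only, since no molecular identifiers are described. Levels are given as CPM scaled by edgeR's TMM factors. The targeted gene was checked first. STAG2 stood at 66.5, 34.8 and 28.8 CPM for WT replicates 1 to 3 and 16.0, 7.31 and 6.70 CPM for KD replicates 1 to 3, a log2 fold change of -2.12 (SE 0.43, adjusted p = 0.0342 in edgeR's quasi-likelihood test). All 8 melanocyte lineage markers, among them PMEL, MITF and SOX10, were above 1 CPM in every library. Of these 8, 7 had a log2 fold change below 0. S100B, a calcium-binding protein, was called lower in KD (log2 fold change -1.35, edgeR adjusted p = 0.00949). With the replicate block 6 were called lower, S100B, SOX10, PMEL, DCT, TYRP1 and MLANA, beside 4.42% of all tested genes. TYR went the other way, at 0.35 without the block and 0.51 with it, and was not called in either fit. Without both libraries of replicate 1, TYR was called higher (0.79, edgeR adjusted p = 0.0272). The summed melanocyte level was 1861 to 6311 CPM in WT and 1195 to 2606 CPM in KD, and its part in the results on the chemokines was not tested. Of 13 leukocyte markers, 7 were at 0 in every library, including CD3E, CD3D, CD8A and MS4A1, and PTPRC (CD45) had 16 counts in 1 WT library and 0 in the other 5. The summed leukocyte level was 27.1 to 44.4 CPM in WT and 91.8 to 127 CPM in KD, and CD68 alone accounted for 25.3 to 39.0 and 88.4 to 125 CPM of these. Of 4 tested leukocyte markers, 1 was called, CD68 as higher in KD (log2 fold change 1.59, edgeR adjusted p = 0.00855). It was also called with the replicate block (edgeR adjusted p = 0.00188). Of the others, LYZ was at 1.51, while CD4 (-1.36) and CD14 (-0.62) were below 0. CSF3R, too low to be tested, had 8.29, 4 and 25 counts in WT and 0, 1 and 0 in KD. In bulk RNA, fewer cells of a type and less RNA per cell cannot be told apart.

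The libraries of replicate 1 stood apart in both groups, WT replicate 1 the most. Mitochondrial genes took 5.07% of its counts against 2.12% to 2.94% elsewhere, and its log2 levels correlated with those of WT replicates 2 and 3 at 0.907 and 0.902 across genes, against 0.975 between these. Its summed melanocyte markers were the highest of all libraries at 6311 CPM, against 1861 and 1916 CPM in the other WT libraries. The summed level of 5 fibroblast markers was 4.25 CPM in it, against 92.1 and 62.5 CPM in WT replicates 2 and 3. Of these sums, COL1A1 made up 2.65, 85.1 and 58.1 CPM. LUM, another of the 5, went the other way, with 7 counts against 0 and 0. KD replicate 1 correlated with KD replicates 2 and 3 at 0.936 and 0.945, against 0.978 between these. It had the highest summed melanocyte markers of the KD libraries at 2606 CPM, and its COL1A1 was 1.40 CPM against 19.4 and 17.7 CPM. The 3 tested fibroblast markers had log2 fold changes below 0. COL1A1 was called lower in KD with the replicate block (-1.67, edgeR adjusted p = 0.00232) but not without it (edgeR adjusted p = 0.462). WT replicate 1 also held the least CCL5, IL8, CXCL1 and CCL2 of the WT libraries. The results on these chemokines are therefore given with and without both libraries of replicate 1, a choice made after these values were seen. Whether these differences between libraries have a part in the results was not tested.

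In edgeR without a block, depletion of STAG2 came with a higher CXCL16 transcript level at an adjusted p under 0.05. This call was lost when WT replicate 2, KD replicate 1 or KD replicate 3 was left out. CCL5 did not pass without a block but passed with the replicate block, in DESeq2 and in limma-voom. The other chemokines either did not pass the test without a block or were too low to be tested. Of the 10 genes, 5 passed the filter on low counts (CCL5, CXCL16, CXCL1, IL8 and CCL2), 1 of them was called higher in KD and 0 lower in edgeR's quasi-likelihood test, and 4 were not called. Over all 15605 tested genes, 2.59% were called, 1.75% as higher and 0.839% as lower. With the replicate number as a block, 2 of the 5 were called higher (CCL5 and CXCL16), and 9.52% of all tested genes were called, 5.1% as higher and 4.42% as lower. DESeq2 and limma-voom called the same 2 as higher, beside 6.33% of all tested genes in DESeq2 (3.52% higher, 2.81% lower) and 2.64% in limma-voom (1.76% higher, 0.878% lower). In 3 of the 5 (CCL5, CXCL16 and IL8) every KD library lay above every WT library, an order that 11.8% of all tested genes had. Groups without overlap in either direction were found in 22.3% of them, 10.5% with KD below WT. The median log2 fold change of the 5 was 1.69, against -0.03 over all tested genes, and 4 of the 5 were above 0 against 48.0% of all tested genes. A gene could pass the filter through its higher group alone, so the last values describe these 5 only.

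**Figure D1:**
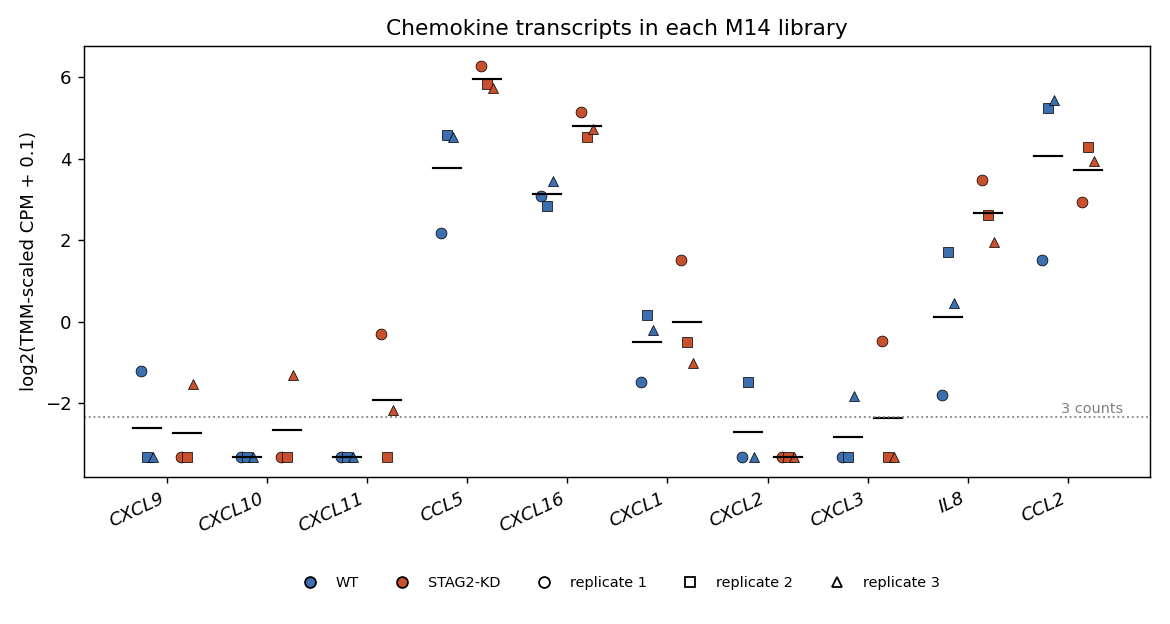
Level of the 10 chemokine transcripts in each of the 6 M14 libraries, as log2(TMM-scaled CPM + 0.1). Points are libraries (blue WT, orange STAG2-KD, shape for the replicate number), bars are means of the log2 values, and the dotted line is the mean level of 3 counts. KD lies above WT in every library for CCL5, CXCL16 and IL8, WT replicate 1 is the lowest WT library for CCL5, CXCL1, IL8 and CCL2, and most points of CXCL9, CXCL10, CXCL11, CXCL2 and CXCL3 are at 0 counts.

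The interferon-inducible ligands of CXCR3 were at or near 0 in both groups. For replicates 1 to 3, CXCL9 had 9, 0 and 0 counts in WT and 0, 0 and 8 in KD. CXCL10 had 0 counts in all 3 WT libraries and 0, 0 and 10 counts in KD, a mean that did not exceed the floor of 3 counts per library, so no fold is given. CXCL11 had 0 counts in the WT libraries and 23, 0 and 4 counts in KD, which is at least 2.86-fold higher against a floor of 3 counts per WT library and rests on 23 counts of 1 library. None of these 3 genes passed the filter on low counts, and in each the groups overlapped at 0. Counts of this size in a single library were not rare in these data. Among the 24350 genes with any count, 1560 (6.41%) had 8 or more counts in 1 library and 0 in the other 5. CXCL10 had this pattern, while CXCL9 and CXCL11 had counts in 2 libraries each. The test with the filter therefore did not compare the CXCR3 ligands between WT and KD, and none of them exceeded 23 counts in any library. CXCL10 and CXCL11 overlap ART3 and CXCL9 overlaps SDAD1-AS1 on the other strand, and the strand setting of the counting is not given in the sources used here.

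CXCL16, the CXCR6 ligand, rose in KD. It stood at 8.42, 7.08 and 10.9 CPM for WT replicates 1 to 3 and 35.3, 23.2 and 26.7 CPM for KD replicates 1 to 3. The groups did not overlap, and the lowest KD library was above the highest WT library. The means were 8.81 ± 1.95 CPM for WT and 28.4 ± 6.24 CPM for KD (SD, n = 3), a 3.23-fold difference with a log2 fold change of 1.69 (SE 0.29, edgeR adjusted p = 0.0153). The exact permutation test gave p = 0.1 (two-sided), the smallest that 3 libraries against 3 allow. Between same-numbered libraries, KD was 4.19, 3.27 and 2.45 times WT for replicates 1 to 3. Unlike the other 4 tested chemokines, CXCL16 was not lowest in WT replicate 1 among the WT libraries. Without both libraries of replicate 1 its log2 fold change was 1.48 (edgeR adjusted p = 0.0291). When WT replicate 2, KD replicate 1 or KD replicate 3 was left out alone, the value ran from 1.51 to 1.71 and the edgeR adjusted p from 0.0565 to 0.0844, so the call was lost.

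At its ends, CXCL16 overlaps 2 genes on the other strand, ZMYND15 by 96 bases and MED11 by 76. ZMYND15, which encodes a zinc finger protein known from spermatogenesis, had 1, 0 and 0 counts in WT and 41, 46 and 54 in KD (log2 fold change 6.57, edgeR adjusted p = 0.0797). CXCL16 itself had 226, 244 and 300.2 counts in WT and 1135, 685 and 873 in KD. MED11 had a log2 fold change of -0.41 (edgeR adjusted p = 0.563). The share of CXCL16 reads that came from either overlap was not tested.

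CCL5, also called RANTES, had the highest mean level per length of the 10 in KD, and like CXCL16 its groups did not overlap. It stood at 4.43, 24.1 and 23.1 CPM for WT replicates 1 to 3 and 78.4, 56.9 and 53.7 CPM for KD replicates 1 to 3. All KD libraries lay above all WT libraries, and WT replicate 1 lay far below the other 2 WT libraries, which had 5.44 and 5.21 times its level. The means were 17.2 ± 11.1 CPM for WT and 63.0 ± 13.4 CPM for KD (SD, n = 3). The log2 fold change was 1.87 (SE 0.51), a 3.66-fold difference that did not pass the test without a block (edgeR adjusted p = 0.106). With the replicate block it was 2.09 and passed (edgeR adjusted p = 0.0243). Without both libraries of replicate 1 it was 1.24 and passed (edgeR adjusted p = 0.0104), and without WT replicate 1 alone it was 1.41 (edgeR adjusted p = 0.0114). The ratios of same-numbered libraries were 17.7 for replicate 1 and 2.36 and 2.33 for replicates 2 and 3. Of the 50-base stretches of its annotated transcript, 17.0% also occur in other genes, 366 in all, so part of its reads could be divided among genes by the counting.

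**Figure D2:**
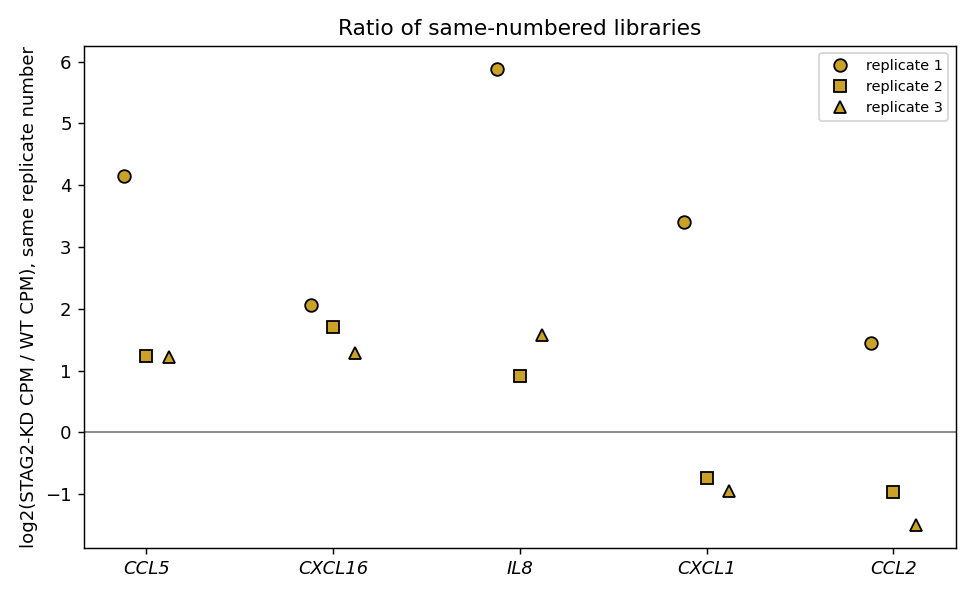
Level in the STAG2-KD library over that in the WT library of the same replicate number, on a log2 scale, for the 5 tested chemokines. Each point is a pair of libraries, and the line at 0 marks equal levels. All 3 ratios of CCL5, CXCL16 and IL8 are above 0, and for CXCL1 and CCL2 the ratio is above 0 for replicate 1 and below 0 for replicates 2 and 3.

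Among the neutrophil-attracting chemokines, IL8 had the highest mean level per length, and its groups did not overlap. It stood at 0.186, 3.19 and 1.27 CPM for WT replicates 1 to 3 and 11.0, 6.02 and 3.79 CPM for KD replicates 1 to 3. Its raw counts were 5, 110 and 35 in WT and 354, 178 and 124 in KD. WT replicate 1 was again the lowest, with the 2 other WT libraries at 17.1 and 6.84 times its level, and KD replicate 1 was the highest. The means were 1.55 ± 1.52 CPM for WT and 6.94 ± 3.70 CPM for KD (SD, n = 3). The log2 fold change of 2.15 (SE 0.85) did not pass the test in edgeR (adjusted p = 0.269, unadjusted p = 0.0308), nor did it with the replicate block, at 2.43 (edgeR adjusted p = 0.126). Same-numbered ratios of KD to WT were 59.1, 1.89 and 2.98. Without both libraries of replicate 1 the log2 fold change was 1.14 (edgeR adjusted p = 0.372).

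CXCL1, first described as a melanoma growth-stimulating factor, was low in both groups. Its level was 0.26, 1.02 and 0.765 CPM for WT replicates 1 to 3 and 2.77, 0.609 and 0.398 CPM for KD replicates 1 to 3. KD replicate 1 was the highest of all 6 libraries, the other KD libraries lay within the WT range, and the groups overlapped. The log2 fold change was 0.88 (SE 1.18, edgeR adjusted p = 0.825), and it was -0.81 without both libraries of replicate 1, so the sign of the difference rested on them. CXCL2 had 0, 9 and 0 counts in WT and 0 in all KD libraries, and CXCL3 had 0, 0 and 5 counts in WT and 20, 0 and 0 in KD. Neither passed the filter, and both groups included libraries at 0.

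CXCL1, CXCL2 and CXCL3 are near-copies of one another, which bears on how their reads are divided. Their coding sequences are 324 bases each, with 93.5% identity between CXCL1 and CXCL2, 90.7% between CXCL1 and CXCL3 and 94.4% between CXCL2 and CXCL3. The 50 coding bases from 189 to 238, as long as a read of this study, are identical in all 3 and are shown here because a read from them cannot be assigned to 1 gene.
CXCL1, CXCL2 and CXCL3: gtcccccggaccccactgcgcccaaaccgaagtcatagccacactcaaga
Of the 50-base stretches of their transcripts, 5.33% of CXCL1, 10.1% of CXCL2 and 5.26% of CXCL3 also occur in another gene, so the values of these 3 genes are uncertain by such reads. With the 3 genes summed, the log2 fold change was 0.82 and did not pass the test.

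CCL2, also called MCP-1, had the highest mean level per length of the 10 in WT. It stood at 2.76, 37.9 and 43.5 CPM for WT replicates 1 to 3 and 7.53, 19.4 and 15.4 CPM for KD replicates 1 to 3. Both replicate 1 libraries were the lowest of their groups, the KD libraries all lay between the lowest and the second-lowest WT library, and the groups overlapped. The means were 28.0 ± 22.1 CPM for WT and 14.1 ± 6.02 CPM for KD (SD, n = 3), with a log2 fold change of -0.99 (SE 0.75, edgeR adjusted p = 0.640). With the replicate block it was -0.45 (edgeR adjusted p = 0.646). Same-numbered ratios of KD to WT were 2.73 for replicate 1 and 0.511 and 0.354 for replicates 2 and 3. Without both libraries of replicate 1, CCL2 was called lower in KD, with a log2 fold change of -1.22 (SE 0.21, edgeR adjusted p = 0.0212), a level of 0.430 times that of WT. In that fit 3 of the 5 tested chemokines were called, CCL5 and CXCL16 as higher and CCL2 as lower, beside 4.73% of the 15991 genes tested in it, 2.88% as higher and 1.85% as lower. With 2 libraries per group it has the fewest samples of all fits.

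**Figure D3:**
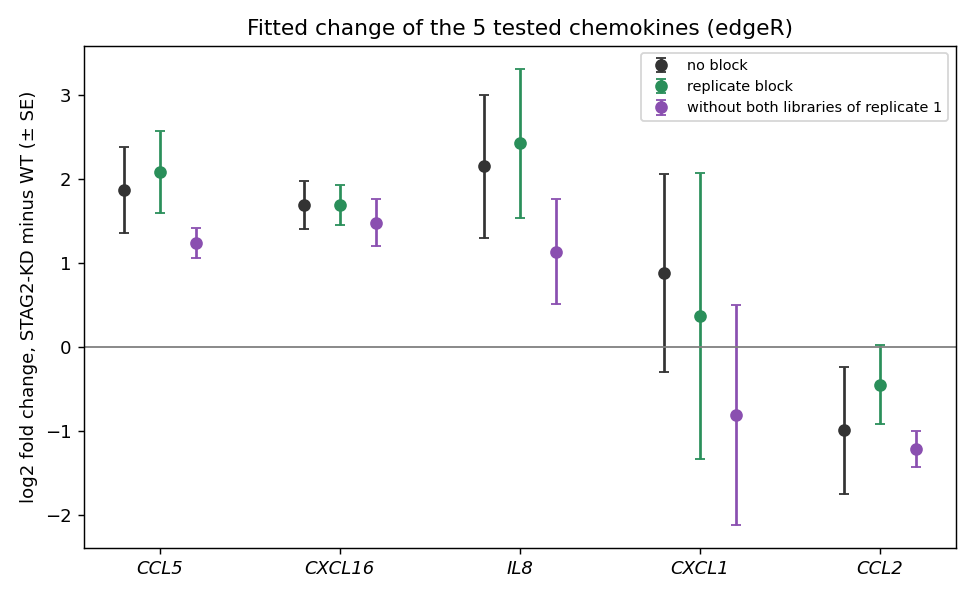
Fitted log2 fold change (STAG2-KD minus WT) of the 5 tested chemokines in edgeR, with bars of ± 1 SE, from all 6 libraries without a block, with the replicate block, and without both libraries of replicate 1. CXCL16 stays between 1.48 and 1.69 in the 3 fits, CCL5 and IL8 are lower without replicate 1 at 1.24 and 1.14, and CXCL1 changes sign from 0.88 to -0.81.

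Levels can be compared between genes only per length, here as CPM per kb of the canonical transcript. In WT the order was CCL2 at 37.8 ± 29.8, CCL5 at 13.3 ± 8.53, CXCL16 at 3.79 ± 0.839, IL8 at 0.944 ± 0.926 and CXCL1 at 0.579 ± 0.327 CPM per kb (SD, n = 3). In KD it was CCL5 at 48.5 ± 10.3, CCL2 at 19.0 ± 8.12, CXCL16 at 12.2 ± 2.69, IL8 at 4.23 ± 2.25 and CXCL1 at 1.07 ± 1.12 CPM per kb (SD, n = 3). CCL5 and CCL2 thus changed places in the order of the means. Their libraries overlapped in WT and did not in KD, where CCL5 stood at 41.4 CPM per kb or more and CCL2 at 26.1 or less. In the KD order CCL2 and CXCL16 overlapped, as did IL8 and CXCL1, while CXCL16 and IL8 did not. In the WT order CCL5 and CXCL16 overlapped, as did IL8 and CXCL1, and CXCL16 and IL8 did not. The other 5 genes had means of at most 0.193 CPM per kb in either group.

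Most of the remaining chemokine genes were at 0. Of 38 other chemokine genes, 21 were at 0 in every library and 7 passed the filter, and of these 1 was called higher in KD, 0 lower, and 6 were not called. The median log2 fold change of the 7 was 0.38. The called gene was CCL26, or eotaxin-3, a CCR3 ligand that attracts eosinophils. It stood at 0.261, 0.232 and 1.38 CPM for WT replicates 1 to 3 and 51.1, 43.3 and 38.1 CPM for KD replicates 1 to 3, and the groups were far apart. The means were 0.625 ± 0.657 CPM and 44.2 ± 6.54 CPM (SD, n = 3), and the log2 fold change of 6.16 (SE 0.63, edgeR adjusted p = 0.000963) was larger than that of any of the 10 chemokines above that could be tested.

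CCL24, another eotaxin, was at 0.186, 0.348 and 0.728 CPM in WT and at 1.93, 6.70 and 4.65 CPM in KD. Its groups did not overlap, and it was called with the replicate block (edgeR adjusted p = 0.0231) but not without it (log2 fold change 3.38, edgeR adjusted p = 0.0677). CCL3, a ligand of CCR1, had 0 counts in all 3 WT libraries and 30.0, 35.4 and 60 in KD, at least 12.8-fold higher against a floor of 3 counts per WT library, and was not called (edgeR adjusted p = 0.0801). The other tested genes, CX3CL1, CCL28, CCL20 and CXCL5, had log2 fold changes from -1.39 to 0.38 and were not called.

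Most chemokine receptor genes had few or no counts. Of 22 receptor genes, 8 were at 0 in every library and 6 passed the filter, with a median log2 fold change of 0.67. Of the 6, CCR1, a receptor of CCL5 and CCL3, was called higher in KD, and 5 were not called. Among all tested genes 1.75% were called higher, and the median log2 fold change was -0.03. CCR1 stood at 0.261, 0.145 and 0.0728 CPM in WT and at 6.47, 1.89 and 3.70 CPM in KD, without overlap between the groups. Its log2 fold change was 4.63 (SE 0.89, edgeR adjusted p = 0.0288), and without both libraries of replicate 1 the edgeR adjusted p was 0.0596. Leaving out any single library other than WT replicate 1 also ended the call, with 0 receptors called. CXCR3 (log2 fold change 0.97), CXCR6 (1.22), CCR4 (-0.63), CCR10 (-0.27) and DARC (0.38) were not called, and the CCL2 receptor CCR2 and the IL8 receptor CXCR1 were at 0 in every library. CXCR2, the receptor of all 4 neutrophil-attracting chemokines, had 36 counts in KD replicate 1 and 0 in the other 5 libraries.

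Of 17 genes that regulate or process these chemokines, 16 passed the filter, 2 were called higher in KD and 0 lower, and 14 were not called, with a median log2 fold change of 0.25. For all tested genes the shares were 1.75% higher and 0.839% lower, with a median of -0.03. Both called genes encode transcription factors that act at the interferon-stimulated response element. They were IRF9 at 2.66 (edgeR adjusted p = 6.49e-05) and STAT2 at 1.94 (edgeR adjusted p = 0.00184) on the log2 scale. The letters of that element occur in the promoters of CXCL9, CXCL10, CXCL2 and CXCL3, and in 6.89% of RefSeq promoters. Transcripts of these chemokines did not pass the filter on low counts. Whether IRF9 or STAT2 acts at their promoters was not tested. With the replicate block 4 were called higher, beside 5.1% of all tested genes. The block added ZC3H12A, an RNase that cuts cytokine transcripts (log2 fold change 1.60, edgeR adjusted p = 0.0515 without and 0.0121 with the block). It also added CEBPB, a transcription factor of the IL8 promoter (0.66, edgeR adjusted p = 0.127 without and 0.0206 with the block).

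NF-kB genes did not pass the test in either fit. RELA, the p65 subunit, had a log2 fold change of 0.31 (edgeR adjusted p = 0.650), and NFKB1, the p50 precursor, one of 0.22 (edgeR adjusted p = 0.697). The inhibitors NFKBIA (-0.20) and TNFAIP3 (0.28) and the cofactor NFKBIZ (-0.52) were not called either. IRF1 stood at 16.9, 77.4 and 65.5 CPM in WT and at 37.9, 72.2 and 68.1 CPM in KD, a log2 fold change of 0.16 (edgeR adjusted p = 0.933), and both replicate 1 libraries were the lowest of their groups, as for CCL2. ADAM10 and ADAM17, the proteases that shed CXCL16, had log2 fold changes of -0.22 and 0.62 and were not called.

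**Figure D4:**
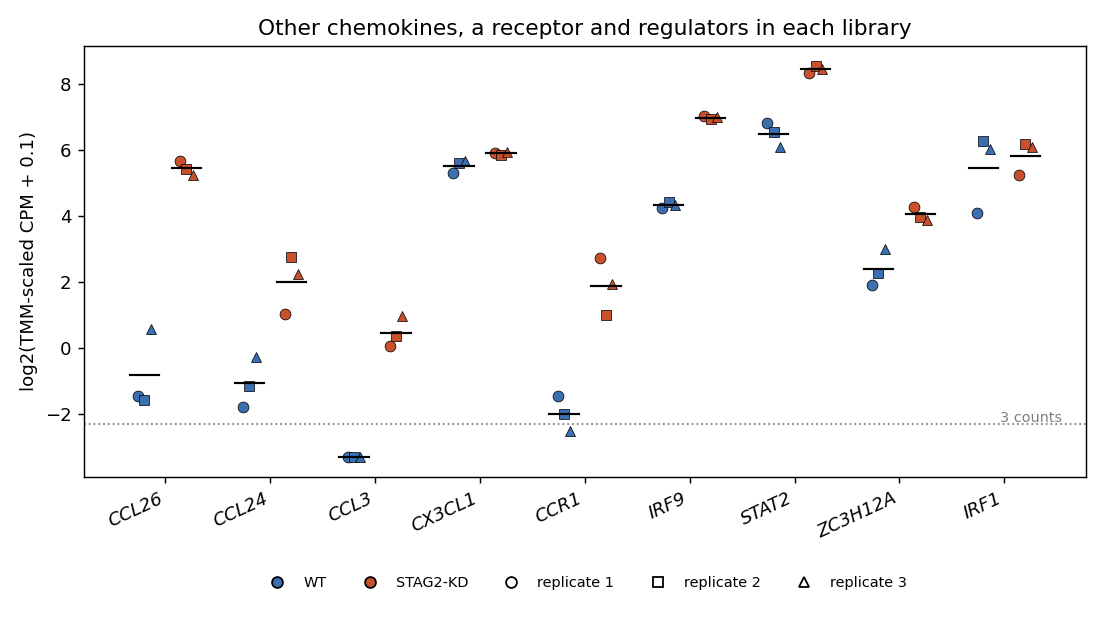
Level of 4 other chemokines (CCL26, CCL24, CCL3, CX3CL1), the receptor CCR1 and 4 regulators (IRF9, STAT2, ZC3H12A, IRF1) in each of the 6 libraries, as log2(TMM-scaled CPM + 0.1), with points, bars and line as in the plot of the 10 chemokines. All plotted genes except IRF1 are higher in all 3 KD libraries than in any WT library, an order that 11.8% of all tested genes had. IRF1 overlaps between the groups, with replicate 1 lowest in each.

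Around the 10 genes, 35 other protein-coding genes lay within 100 kb, of which 33 were in the table and 17 passed the filter. Of these, 0 were called in edgeR, either without a block or with it, beside 2.59% and 9.52% of all tested genes. With 17 genes, a count of 0 does not set them apart from all tested genes. Their median log2 fold change was -0.30. The 9 tested neighbours of CXCL16 ran from -7.25 to 6.57 (ZMYND15) with a median of -0.11, and the 2 tested neighbours of CCL5 had values of -0.16 and 0.46.

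The genes whose profile over the 6 libraries was most like that of each chemokine were ranked by the root mean square difference of log2 levels, each centred on its own mean, among 13531 genes. For CCL5 they were SPOCD1 (0.210), TNFRSF1B (0.249), which encodes TNF receptor 2, and RP11-599B13.6 (0.287). TNFRSF1B (0.541) and RP11-599B13.6 (0.553) were also among the 3 nearest to IL8, after RP11-10N23.4 (0.298), but at larger differences than from CCL5. For CXCL16 they were PTK2B (0.144), a focal adhesion kinase relative, and the class I HLA genes HLA-H (0.149), a pseudogene, and HLA-E (0.167). Because HLA genes are near-copies of one another, their reads could be divided between them. For CXCL1 they were KLHL11 (0.223), RP11-262H14.4 and C1orf56. The 3 nearest to CCL2 were KRT81 (0.175) and KRT86 (0.209), 2 similar hair keratins, and JPH2 (0.241).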

How the data were processed

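Polyadenylated RNA of 6 M14 samples (3 WT, 3 STAG2-KD) was made into directional libraries. The authors deposited RSEM expected counts per gene, not scaled between libraries. The submitters' processing notes name STAR, RSEM and hg19. Expected counts need not be whole, since reads that match several genes are divided between them. The gene annotation and strand setting are not given in the sources used here.

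Expected counts were rounded and tested in R 4.3.3 with edgeR 4.0.16 (filterByExpr, TMM scaling, quasi-likelihood test on 15605 genes, Benjamini-Hochberg adjustment over all of them, adjusted p under 0.05). Alternatives were DESeq2 1.42.0, limma-voom (limma 3.58.1), a replicate block, other scalings and filters, and leaving out libraries. The fits of edgeR without a block, DESeq2 and limma-voom were tested on simulated counts that held no effect of the replicate number. Fits with the block or with libraries left out were not tested in this way. After subtraction of the group means, log2 CPM correlated between same-numbered libraries at 0.607, 0.479 and 0.380 across 8932 genes. Different-numbered pairs ran from -0.555 to 0.305, with WT replicate 2 and KD replicate 3 at 0.305 and WT replicate 3 and KD replicate 2 at 0.198, and all pairs of a replicate 1 with another number below 0. Subtracting the group means balances each library against the others of its group, so a positive value for same-numbered pairs lowers that of other pairs. Part of the contrast is thus fixed in advance. The numbers were taken to pair the libraries, though much of the contrast sets replicate 1 apart. The replicate numbers come from the sample titles.

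All 10 chemokines and STAG2 are named, with the called genes of 3 lists (other chemokines, receptors, regulators and processors), those not called that give the range, and for each tested chemokine its 3 most similar genes. Other genes were chosen after their values were seen. The members and lists were chosen with earlier results of these data known. Some results are not reported here, and the lists of receptors and regulators are counted without them.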

Additional observations from a re-analysis of the deposited data

How the results depend on the processing

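Of 15605 tested genes, 404 (2.59%) were called. The count was 1486 with the replicate block, which takes same-numbered libraries as pairs, 988 with DESeq2, 1103 with no filter on low counts, 757 without both libraries of replicate 1, and 121 to 531 when single libraries were left out. The chemokines called numbered 1, and 2 with the block, with DESeq2 and with limma-voom, 4 with no filter, 3 without both libraries of replicate 1 and 0 to 2 with a library left out (0 without WT replicate 2, KD replicate 1 or KD replicate 3, 2 without WT replicate 1). Other chemokines called numbered 1, and 2 with the block, 3 with DESeq2, 3 with no filter, 0 with at least 10 counts in every library, 2 without both libraries of replicate 1 and 1 to 1 with a library left out. For receptors 1 became 0 with limma-voom, with at least 10 counts in every library and without both libraries of replicate 1, and 0 to 1 with a library left out. For regulators 2 became 4 with the block and with DESeq2. CCL5 (log2 fold change 1.87, not called) was called with the block (2.09), DESeq2 (1.85), limma-voom (2.15), no filter (1.87) and without both libraries of replicate 1 (1.24), and ran from 1.41 to 2.19 with a library left out. CXCL16 was at 1.48 without both libraries of replicate 1 and ran from 1.51 to 1.87 with a library left out, and it lost its call without WT replicate 2, KD replicate 1 or KD replicate 3. CXCL1 (0.88) turned to -0.43 without KD replicate 1 and to -0.81 without both libraries of replicate 1, and ran from -0.43 to 1.29. IL8 was called with no filter (2.15, edgeR adjusted p = 0.0296) and ran from 1.62 to 3.24. CCL2 was called with no filter (-0.99, edgeR adjusted p = 0.0380) and without both libraries of replicate 1 (-1.22), and ran from -1.53 to -0.53. The cause of these changes was not tested. The share of all genes called is not given here for the fits with no filter, with at least 10 counts in every library or with a library left out. The counts of called chemokines and receptors in those fits therefore cannot be set against it. The block changed no other call among the chemokines. At 0 to 23 counts per library, CXCL9, CXCL10, CXCL11, CXCL2 and CXCL3 did not pass the filter on low counts, so the test with the filter did not compare them.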
